A study of Mus musculus with 6 samples.

Results

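Calcineurin, its NFAT targets, its RCAN inhibitors and the calsarcins were followed in whole muscle of Net39 mice as a group of 10 genes taken by symbol: Ppp3ca and Ppp3cb (calcineurin catalytic subunits), Rcan1 and Rcan2 (calcineurin inhibitors), Nfatc1, Nfatc2, Nfatc3 and Nfatc4 (transcription factors) and Myoz1 and Myoz2 (calsarcins of the Z-disc). All 10 were among the 24421 genes listed in the count tables, and all 10 passed the filter on low counts that left 14180 genes for testing. The RNA came from gastrocnemius-plantaris (GP) muscle of 5-month-old male mice, 3 months after tamoxifen. The strain label is B6C3F1, and per the study's methods the founders of the floxed line were mated to C57BL/6N mice. All mice carried homozygous floxed alleles of Net39, which encodes a muscle nuclear envelope protein: 3 libraries were labelled Ctrl (Net39 fl/fl, Cre-) and 3 were labelled cKO (HSACreERT2;Net39 fl/fl). HSACreERT2 is a tamoxifen-inducible Cre driven by the human skeletal actin promoter, which acts in muscle fibres and not in satellite cells. Since the Ctrl mice had no Cre, the transgene itself had no control here.

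Net39 (listed as Ppapdc3) went against these labels. It had 310, 321 and 217 counts in Ctrl-labelled libraries 1, 2 and 3, but 5365, 4340 and 6080 counts in cKO-labelled libraries 1, 2 and 3. The targeted gene was thus low where the label reads Ctrl, and every direction below is given for the label only. Total counts were 33860001 to 38201728 for the label Ctrl and 39191239 to 48839910 for the label cKO. The defining muscle genes Acta1, Ckm, Des, Ttn and Mb summed to at least 60290 CPM in each library, CPM being the count of a gene relative to the library total after TMM scaling.

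Calcineurin is a calcium- and calmodulin-dependent phosphatase made of a catalytic A subunit and a regulatory B subunit. When slow, sustained nerve activity keeps calcium raised in a fibre, calcineurin dephosphorylates NFAT factors, which enter the nucleus and, together with MEF2, act on genes of slow fibres. RCAN proteins and calsarcins bind calcineurin and restrain it, and Rcan1 is itself a classic NFAT target through an internal promoter, which makes its mRNA a commonly used readout of the pathway. Myoz2 (calsarcin-1) belongs to slow fibres and heart, whereas Myoz1 (calsarcin-2) belongs to fast fibres.

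Promoter sequences are given for the genes on which the results turn: Rcan1, whose separate starts differ in NFAT letters, Myoz2, whose change was of similar size to that of Rcan1, and Ppp3cb, which changed in the opposite direction. They are RefSeq windows of GRCm38.p6, 250 bases before to 50 bases after a start, printed 5′ to 3′ on the gene's strand. Capitals mark the NFAT core motif GGAAA on either strand (TTTCC when it lies on the other strand), with overlapping matches allowed.
Rcan1, upstream start (chr16:92466120-92466419, minus strand): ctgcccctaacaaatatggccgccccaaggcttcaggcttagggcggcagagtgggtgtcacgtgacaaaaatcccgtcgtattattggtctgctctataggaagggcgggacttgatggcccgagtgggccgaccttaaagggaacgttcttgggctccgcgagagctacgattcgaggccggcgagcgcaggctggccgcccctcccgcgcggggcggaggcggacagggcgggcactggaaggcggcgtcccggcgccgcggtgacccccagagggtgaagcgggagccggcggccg
Rcan1, internal start (chr16:92400029-92400328, minus strand): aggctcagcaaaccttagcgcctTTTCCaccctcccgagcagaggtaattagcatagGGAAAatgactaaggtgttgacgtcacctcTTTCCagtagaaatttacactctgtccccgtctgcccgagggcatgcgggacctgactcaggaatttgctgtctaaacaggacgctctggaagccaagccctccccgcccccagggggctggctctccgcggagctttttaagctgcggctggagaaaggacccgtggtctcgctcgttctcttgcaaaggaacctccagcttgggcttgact
Myoz2 (chr3:123034938-123035237, minus strand): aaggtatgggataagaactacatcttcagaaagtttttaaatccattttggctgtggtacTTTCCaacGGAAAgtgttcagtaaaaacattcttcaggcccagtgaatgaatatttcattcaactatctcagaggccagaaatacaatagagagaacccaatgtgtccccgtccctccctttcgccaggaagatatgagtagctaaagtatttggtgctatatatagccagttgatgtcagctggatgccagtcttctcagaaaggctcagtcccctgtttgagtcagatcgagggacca
Ppp3cb (chr14:20546524-20546823, minus strand): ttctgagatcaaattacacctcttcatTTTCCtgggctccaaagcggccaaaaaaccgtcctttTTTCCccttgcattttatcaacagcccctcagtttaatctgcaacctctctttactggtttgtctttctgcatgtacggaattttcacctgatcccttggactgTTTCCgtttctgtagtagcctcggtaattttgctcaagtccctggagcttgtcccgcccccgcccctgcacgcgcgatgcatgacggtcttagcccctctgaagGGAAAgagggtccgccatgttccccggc
The internal Rcan1 window held 3 matches, with first bases 227, 193 and 163 bases before the start, and the upstream Rcan1 window held 0. The last 30 bases of the upstream window were not found in any Rcan1 transcript of GENCODE M21, whereas those of the other 3 printed windows were found in a transcript of their gene. Myoz2 had 2 matches, 190 and 182 bases before its start, and also a match to the MEF2 consensus 33 bases before it. Ppp3cb had 4. Of the 32851 RefSeq windows of the same length, 61.3% held at least 1 NFAT core match, 9.42% held 3 or more and 3.19% held a MEF2 match. RefSeq windows were read for 7 of the 10 genes, and 8 of the 12 windows of those 7 genes held an NFAT core match. Ppp3ca and Myoz1 had no matched window, and Nfatc1 was not looked for, since its chromosome was left out of this search. A match is a description of the letters and not evidence of binding.

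The group moved in both directions. In edgeR's quasi-likelihood test over all genes, 7 of the 10 fell under the adjusted p limit of 0.05, beside 24.4% of all genes tested. Of these, 4 were higher in the cKO-labelled libraries (Ppp3ca, Ppp3cb, Nfatc3 and Myoz1), the direction of 12.6% of all genes tested. The other 3 were higher in the Ctrl-labelled libraries (Rcan1, Rcan2 and Myoz2), the direction of 11.8%. With a fold change over 2 as well, 4 genes were left, beside 6.05% of all genes tested: Ppp3cb, higher under the label cKO like 2.13% of them, and Rcan1, Rcan2 and Myoz2, higher under the label Ctrl like 3.92%. Log2 fold changes, here always cKO label over Ctrl label, ran from -2.16 to 1.06 with a median of -0.20, beside a median of -0.02 over all genes tested. The CPM values of the label groups did not overlap for 9 of the 10 genes, as for 43.9% of all genes tested. They were higher under the label cKO for 4 of them (22% of all genes tested) and under the label Ctrl for 5 (21.9%). For each of those 9 the exact two-sided permutation test gave p = 0.1, the smallest p that 3 libraries against 3 allow.

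**Figure D1:**
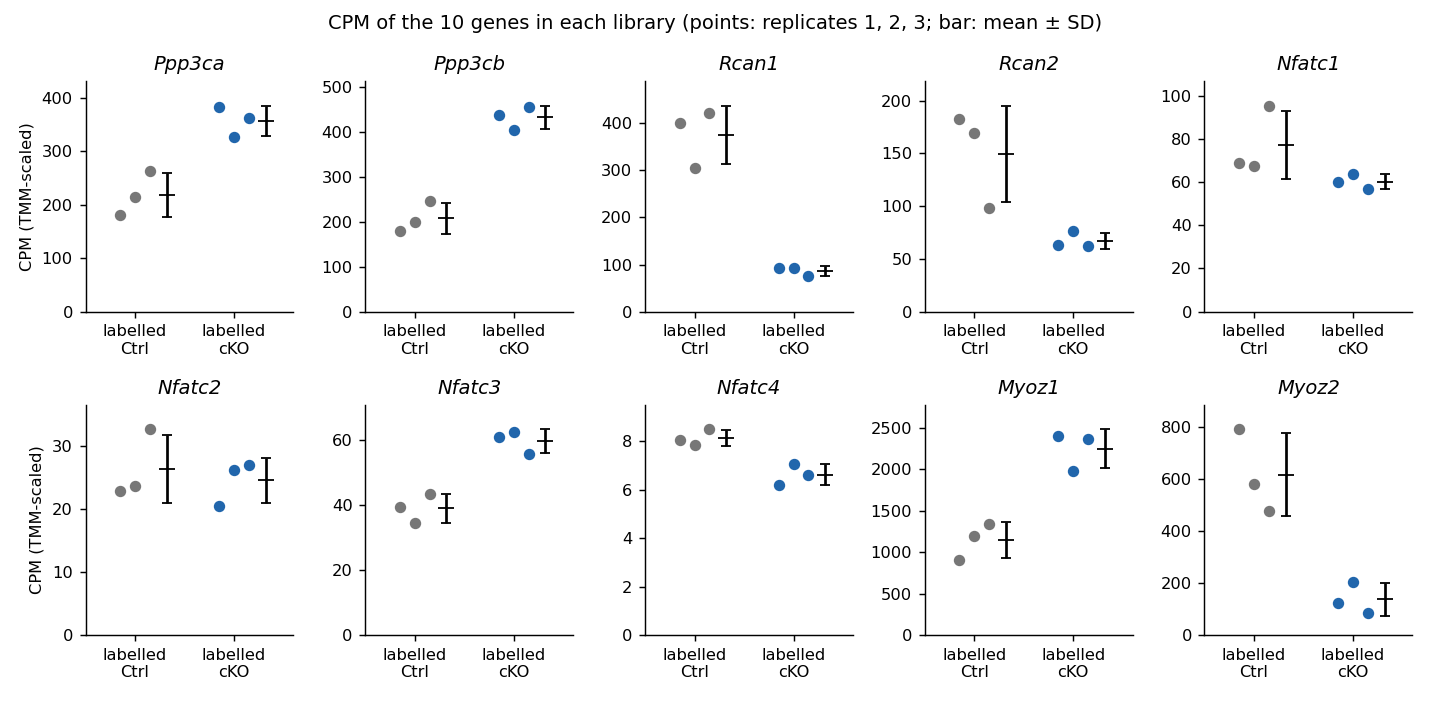
CPM of the 10 genes (y axes, from 0, scaled with TMM factors) in the 3 Ctrl-labelled libraries (grey points, replicates 1 to 3 from left to right) and the 3 cKO-labelled libraries (blue points), with bars for mean ± SD. The groups lie apart in each panel except that of Nfatc2, with Rcan1 at 306 to 421 CPM against 74.9 to 92.8 CPM and Myoz1 at 908 to 1338 CPM against 1978 to 2393 CPM.

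Both calcineurin A genes were more abundant under the label cKO. Ppp3cb, which encodes the beta catalytic subunit (chromosome 14, 20499364 to 20546573, minus strand of GRCm38), had 178, 198 and 245 CPM in Ctrl-labelled libraries 1, 2 and 3. In cKO-labelled libraries 1, 2 and 3 it had 437, 404 and 455 CPM. Each cKO-labelled value was therefore well above the highest Ctrl-labelled value, and the ratio of the means was 2.08. The log2 fold change, given here and below ± its standard error, was 1.06 ± 0.13 (edgeR, adjusted p = 0.00354). That change stood close to the fold limit of 2, and it was 0.80 when libraries were scaled by total counts and 0.96 without Ctrl-labelled library 1. In this bulk RNA, a change in the share of a cell or fibre type and a change in RNA per cell cannot be told apart.

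Ppp3ca, the alpha catalytic subunit gene (chromosome 3, 136670124 to 136937727, plus strand), had 180.5, 214 and 262 CPM in the Ctrl-labelled libraries and 382, 327 and 362 CPM in the cKO-labelled ones. The lowest cKO-labelled value lay above the highest Ctrl-labelled one by a smaller margin than for Ppp3cb. For Ppp3ca the log2 fold change was 0.71 ± 0.15 (adjusted p = 0.0154, edgeR), a ratio of means of 1.63. The call depended on single libraries, since the adjusted p (edgeR) was 0.0572 without Ctrl-labelled library 2, 0.0525 without cKO-labelled library 1 and 0.0519 without cKO-labelled library 3.

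The rest of the holoenzyme was read from the list of other calcineurin subunits and calmodulin genes, of which 5 of 6 were tested and Ppp3r2, with at most 1 count in each library, was not. Of the 5, 3 rose under the label cKO, Ppp3r1 and Calm3 among them, 0 fell and 2 did not pass, and the median log2 fold change was 0.85. Of all genes tested, 12.6% were called higher under that label. Ppp3r1, the regulatory B subunit gene of muscle, averaged 138 ± 14.9 CPM (SD, n = 3) for the label Ctrl and 248 ± 16.6 CPM (SD, n = 3) for the label cKO, a log2 fold change of 0.85 (adjusted p = 0.00354, edgeR). Ppp3cc, the third catalytic subunit gene, had a log2 fold change of 0.18 (95% interval -0.02 to 0.38) and did not pass.

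Per kilobase of exon, the scale used wherever genes are compared, Ppp3cb was at 23.5 ± 3.87 CPM per kb (SD, n = 3) and Ppp3ca at 21.9 ± 4.13 CPM per kb (SD, n = 3) in the Ctrl-labelled libraries, and the ranges of the pair overlapped. Under the label cKO, Ppp3cb was at 49.0 ± 2.93 CPM per kb (SD, n = 3) and Ppp3ca at 35.8 ± 2.79 CPM per kb (SD, n = 3), with no overlap. Ppp3cb thus took 43.0% to 45.2% of the summed catalytic subunit level in the Ctrl-labelled libraries and 51.1% to 53.1% in the cKO-labelled ones. The summed level of Ppp3ca, Ppp3cb and Ppp3cc was 53.3 ± 7.75 CPM per kb (SD, n = 3) for the label Ctrl and 93.7 ± 5.86 CPM per kb (SD, n = 3) for the label cKO.

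The inhibitor genes went the other way. Rcan1, on chromosome 16 (92391953 to 92470867, minus strand), had 399.9, 306 and 421 CPM in Ctrl-labelled libraries 1, 2 and 3. In cKO-labelled libraries 1, 2 and 3 it had 92.8, 92.5 and 74.9 CPM. The lowest Ctrl-labelled value was more than 3 times the highest cKO-labelled value, and the ratio of the means, Ctrl label over cKO label, was 4.33. Rcan1 had a log2 fold change of -2.11 ± 0.15 (95% interval -2.47 to -1.76, adjusted p = 0.000722, edgeR), and 1.33% of all genes tested had a larger change in either direction. Rcan1 passed in each of the 6 fits that left out a library, at log2 fold changes of -2.24 to -2.02. The counts are per gene, so transcripts from the upstream and internal Rcan1 starts shown above were not separated.

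Rcan2, which encodes a calcineurin inhibitor abundant in slow muscle, heart and brain (chromosome 17, 43801351 to 44039516, plus strand), had 182, 169 and 97.8 CPM in the Ctrl-labelled libraries and 63.1, 76.0 and 61.9 CPM in the cKO-labelled ones. Ctrl-labelled library 3 was the lowest of its group but still above each cKO-labelled library. The log2 fold change was -1.16 ± 0.23 (adjusted p = 0.0129, edgeR). That call was lost, narrowly, without cKO-labelled library 1 (adjusted p = 0.0531, edgeR) and without cKO-labelled library 3 (adjusted p = 0.0532, edgeR). Rcan3, the remaining family member, had 8.54 ± 0.444 CPM (SD, n = 3) for the label Ctrl and 9.10 ± 0.410 CPM (SD, n = 3) for the label cKO, with a log2 fold change of 0.09 (95% interval -0.13 to 0.32, adjusted p = 0.514, edgeR). With total counts this value turned to -0.16.

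Per kilobase, the summed RCAN level was 158 ± 16.9 CPM per kb (SD, n = 3) in the Ctrl-labelled libraries and 45.2 ± 4.52 CPM per kb (SD, n = 3) in the cKO-labelled ones. Rcan1 made up 71.0% to 85.03% of that sum for the label Ctrl and 60.3% to 65.1% for the label cKO. The ratio of Rcan1 to Ppp3cb per kilobase was 6.40, 4.398 and 4.91 in the Ctrl-labelled libraries and 0.607, 0.655 and 0.470 in the cKO-labelled ones, so Rcan1 was above Ppp3cb in each Ctrl-labelled library and below it in each cKO-labelled library.

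**Figure D2:**
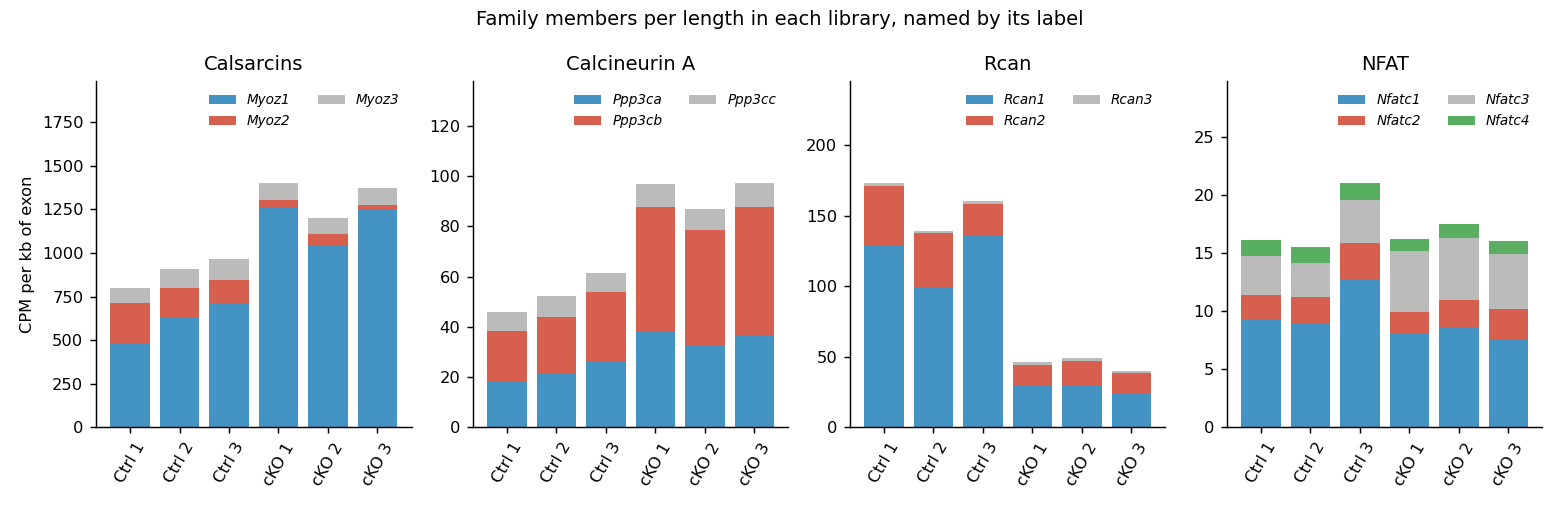
CPM per kilobase of exon (y axes, from 0) of the calsarcin, calcineurin A, RCAN and NFAT genes, stacked for each library, named on the x axes by its label and replicate. The summed RCAN level is at least 139.5 CPM per kb in the Ctrl-labelled libraries and at most 49.2 CPM per kb in the cKO-labelled ones, where Myoz2 takes at most 5.03% of the calsarcin level.

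Other calcineurin-binding genes did not move as a block. Of the 8 on that list, all tested, 1 rose under the label cKO (Fkbp1a), 2 fell (Lmcd1 and Cabin1) and 5 did not pass, with a median log2 fold change of -0.03. Of all genes tested, 12.6% were called higher under the label cKO and 11.8% under the label Ctrl. Fkbp1a passed narrowly (0.28, adjusted p = 0.0403, edgeR) and did not pass with total counts (0.02, adjusted p = 0.838, edgeR) or in 5 of the 6 fits lacking a library, and Cabin1 passed in 3 of those 6. Lmcd1, which encodes a LIM-domain protein that promotes calcineurin signalling in heart, averaged 424 ± 17.6 CPM (SD, n = 3) for the label Ctrl and 128 ± 22.4 CPM (SD, n = 3) for the label cKO. Lmcd1 changed by -1.73 ± 0.14 on the log2 scale (adjusted p = 0.000897, edgeR), the 1 gene of this list past a fold change of 2, and passed with each library left out.

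The NFAT genes differed among themselves. Nfatc3, on chromosome 8 (106058840 to 106130537, plus strand), was the NFAT gene that passed, with 39.3, 34.5 and 43.3 CPM in the Ctrl-labelled libraries and 60.9, 62.4 and 55.6 CPM in the cKO-labelled ones. Each cKO-labelled value was above each Ctrl-labelled value. The log2 fold change was 0.61 ± 0.10 (adjusted p = 0.0075, edgeR) and stayed past the threshold with each library left out, at 0.53 to 0.69, and with total counts, at 0.36. Of the exon bases of Nfatc3, 1.87% overlap Esrp2 on the opposite strand.

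Nfatc1, the NFAT factor most closely tied to the slow-fibre programme, had 69.0, 67.2 and 95.3 CPM in the Ctrl-labelled libraries and 59.97, 63.7 and 56.9 CPM in the cKO-labelled ones. The Ctrl-labelled values were all higher, but library 3 stood well above the other two of that label. Its log2 fold change of -0.36 (95% interval -0.69 to -0.03) did not pass (adjusted p = 0.107, edgeR), and without that library it was -0.18. Nfatc4 had 8.04, 7.84 and 8.48 CPM against 6.18, 7.06 and 6.61 CPM, a log2 fold change of -0.29 (95% interval -0.54 to -0.05) that also missed the threshold (adjusted p = 0.0799, edgeR). With total counts, which moved the median of all genes tested from -0.02 to -0.27, Nfatc1 reached -0.61 (adjusted p = 0.0214, edgeR) and Nfatc4 -0.55 (adjusted p = 0.021, edgeR), so the scaling decided both calls.

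Nfatc2, the NFAT factor studied most in lymphocytes and in myotube growth, had 22.8, 23.6 and 32.6 CPM in the Ctrl-labelled libraries and 20.5, 26.2 and 27.0 CPM in the cKO-labelled ones. These ranges overlapped, with p = 0.7 in the exact permutation test (two-sided) and a log2 fold change of -0.10 (95% interval -0.49 to 0.30). Its sign turned without Ctrl-labelled library 3, to 0.09. The interval leaves room for a change of either sign.

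In level per kilobase, Nfatc1 was the most abundant NFAT gene under both labels, at 10.3 ± 2.103 CPM per kb (SD, n = 3) for Ctrl and 8.06 ± 0.457 CPM per kb (SD, n = 3) for cKO, followed by Nfatc3, Nfatc2 and Nfatc4. Nfatc3 and Nfatc2 overlapped in the Ctrl-labelled libraries and not in the cKO-labelled ones. The share of Nfatc3 in the summed NFAT level was 17.6% to 20.8% for the label Ctrl and 29.6% to 32.01% for the label cKO, while that of Nfatc1 was 57.3% to 60.8% and 47.4% to 49.5%. The summed level itself overlapped between the labels, at 17.5 ± 3.00 CPM per kb (SD, n = 3) and 16.6 ± 0.815 CPM per kb (SD, n = 3).

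NFAT genes are also expressed by leukocytes and endothelium, so those markers were read beside them. The 10 leukocyte markers summed to 197 to 276 CPM in the Ctrl-labelled libraries and 83.5 to 126 CPM in the cKO-labelled ones. Of the 7 tested, 5 were higher under the label Ctrl (1 without cKO-labelled library 3, 2 without Ctrl-labelled library 2 or cKO-labelled library 1, and 3 without Ctrl-labelled library 1 or 3), while the lymphocyte markers Cd3e and Cd79a were near 0 in each library and were not tested. The 7 endothelial markers summed to 481 to 510 CPM and 433 to 451 CPM, with 1 of 7 higher under the label Ctrl and 3 with total counts. Each marker count here stands beside 11.8% of all genes tested called higher under the label Ctrl and 12.6% under the label cKO. With total counts, 4074 of 14180 genes were called higher under the label Ctrl. Of the markers of fibro-adipogenic progenitors 3 of 6, and of smooth muscle 2 of 3, were also higher under the label Ctrl, whereas 1 of 3 satellite cell markers was higher under the label cKO. The smooth muscle count was 1 without Ctrl-labelled library 1, Ctrl-labelled library 2 or cKO-labelled library 3, and the satellite cell count was 0 with total counts. Their part in the NFAT values was not tested.

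Of 10 kinase and export genes that return NFAT to the cytosol, 3 rose under the label cKO (Gsk3a, Csnk1e and Mapk14), 0 fell and 7 did not pass, and the median log2 fold change was 0.11. With total counts, 1 rose and 2 fell (Csnk1d and Dyrk1b), a setting in which 4074 of 14180 genes fell. The count of 3 of 10 stands beside 24.4% of all genes tested, and became 1 with the mouse number as a block and in 5 of the 6 fits lacking a library, all but that without cKO-labelled library 2. Mapk14, which encodes p38 alpha, had the smallest p, with a log2 fold change of 0.56 ± 0.10 (adjusted p = 0.00874, edgeR), and was the 1 of the 3 that still passed with total counts, where Gsk3a turned from 0.24 to -0.01. Among 9 NFAT partners and NFAT5, 8 were tested, 1 rose (Ep300), 1 fell (Gata2, log2 fold change -0.43, adjusted p = 0.0205, edgeR) and 6 did not pass. Ep300 did not pass with total counts (adjusted p = 0.725, edgeR), where 0 of this list rose and 4 fell. With a library left out, Ep300 passed in 1 of the 6 fits and Gata2 in 2. Of the 7 calcium entry and release genes, 6 were tested, 2 rose (Cacna1s and Ryr1) and 4 did not pass. This count and that of the NFAT partners stand beside the same 24.4%. With total counts, 0 calcium genes rose and 2 fell (Stim1 and Orai1). Cacna1s did not pass with total counts (adjusted p = 0.0899, edgeR) and passed in 1 of the 6 fits lacking a library. Ryr1, the calcium release channel of the sarcoplasmic reticulum, had a log2 fold change of 0.64 ± 0.17 (adjusted p = 0.0342, edgeR), which missed the threshold with total counts (adjusted p = 0.0584, edgeR) and in 4 of the 6 fits lacking a library, the adjusted p reaching 0.112 without cKO-labelled library 3.

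Across the 6 lists of other pathway genes, 44 of 47 genes were tested, 11 rose under the label cKO and 6 fell. Over all genes tested, 1786 (12.6%) were called higher under the label cKO and 1668 (11.8%) under the label Ctrl. With total counts the split of the lists was 5 and 15, and that of all genes tested moved the same way, to 673 and 4074. The count of 17 became 9 without Ctrl-labelled library 1, Ctrl-labelled library 2 or cKO-labelled library 1, and 7 without cKO-labelled library 3.

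**Figure D3:**
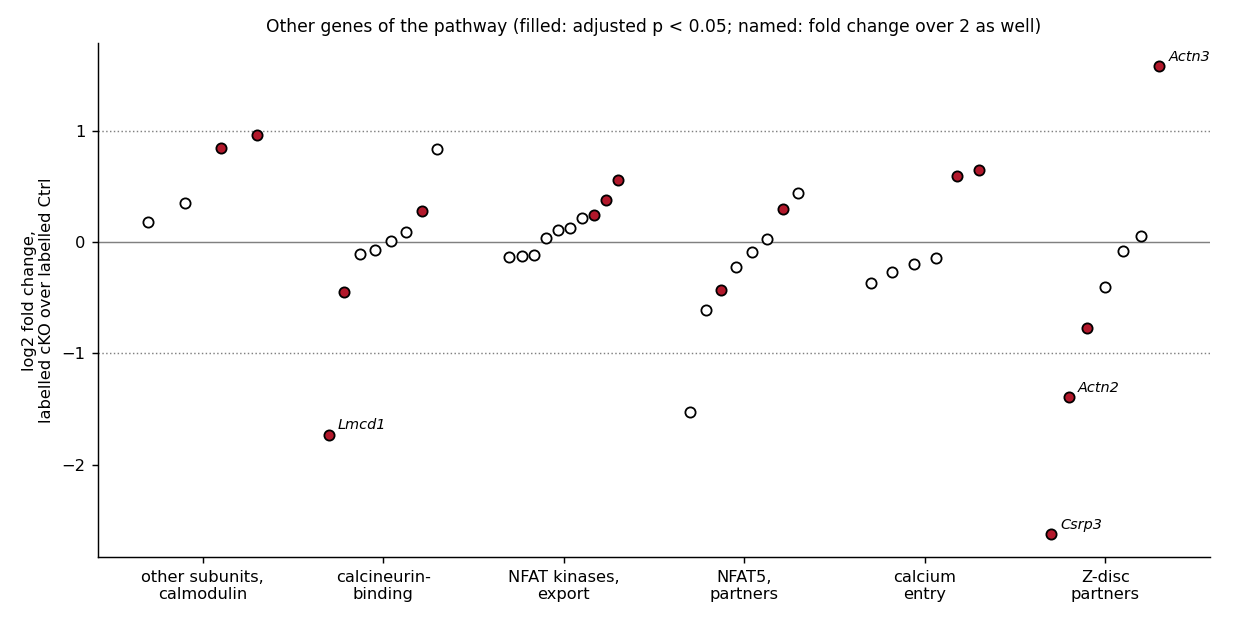
Log2 fold changes (y axis, cKO label over Ctrl label) of other pathway genes tested, by list along the x axis, with filled points for an adjusted p under 0.05 and names for those that also had a fold change over 2. The named genes are Actn3 above the line for a fold change of 2 and Lmcd1, Actn2 and Csrp3 below that for its inverse.

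The calsarcins changed in opposite directions. Myoz2, on chromosome 3 (123006206 to 123035015, minus strand), had 791, 580.0 and 480.0 CPM in Ctrl-labelled libraries 1, 2 and 3 and 123, 207 and 84.8 CPM in cKO-labelled libraries 1, 2 and 3. The lowest Ctrl-labelled library was above the highest cKO-labelled one, and the ratio of the means, Ctrl label over cKO label, was 4.46. Within the label cKO the values themselves spread 2.44-fold, the widest spread of the 10 genes. Myoz2 had a log2 fold change of -2.16 ± 0.34 (95% interval -2.96 to -1.36, adjusted p = 0.007, edgeR), and it passed with each library left out, at -2.59 to -1.92.

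Myoz1, on chromosome 14 (20649107 to 20656540, minus strand), had 908, 1193 and 1338 CPM in the Ctrl-labelled libraries and 2393, 1978 and 2366 CPM in the cKO-labelled ones. The groups were well apart, with a ratio of means of 1.96. Its log2 fold change of 0.97 ± 0.17 (adjusted p = 0.00858, edgeR) passed with each library left out and fell just short of the fold limit of 2. Myoz3 (calsarcin-3), a fast-fibre calsarcin, had 357 ± 59.1 CPM (SD, n = 3) for the label Ctrl and 332 ± 3.94 CPM (SD, n = 3) for the label cKO, and its log2 fold change was -0.11 (95% interval -0.41 to 0.19, adjusted p = 0.576, edgeR). That value was -0.36 with total counts and turned to 0.005 without Ctrl-labelled library 3.

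In level per kilobase, the 10 genes ran from Myoz1 to Nfatc4 under both labels, at 606 ± 116 and 1.40 ± 0.0559 CPM per kb (SD, n = 3) for Ctrl and 1187 ± 123 and 1.14 ± 0.076 CPM per kb (SD, n = 3) for cKO. The Ctrl order was Myoz1, Myoz2, Rcan1, Rcan2, Ppp3cb, Ppp3ca, Nfatc1, Nfatc3, Nfatc2 and Nfatc4, in which the ranges of Rcan2 and Ppp3cb, Ppp3cb and Ppp3ca, and Nfatc3 and Nfatc2 overlapped. The cKO order was Myoz1, Ppp3cb, Myoz2, Ppp3ca, Rcan1, Rcan2, Nfatc1, Nfatc3, Nfatc2 and Nfatc4. Myoz2 came next for the label Ctrl, at 180.3 ± 46.5 CPM per kb (SD, n = 3), above Rcan1 without overlap. For the label cKO it was at 40.4 ± 18.2 CPM per kb (SD, n = 3), and its range overlapped those of Ppp3cb, Ppp3ca and Rcan1. The ratio of Myoz1 to Myoz2 per kilobase was 2.07, 3.72 and 5.04 in the Ctrl-labelled libraries and 35.2, 17.3 and 50.5 in the cKO-labelled ones. Myoz2 accordingly made up 29.0%, 18.7% and 14.5% of the summed calsarcin level for the label Ctrl and 2.57%, 5.03% and 1.80% for the label cKO.

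**Figure D4:**
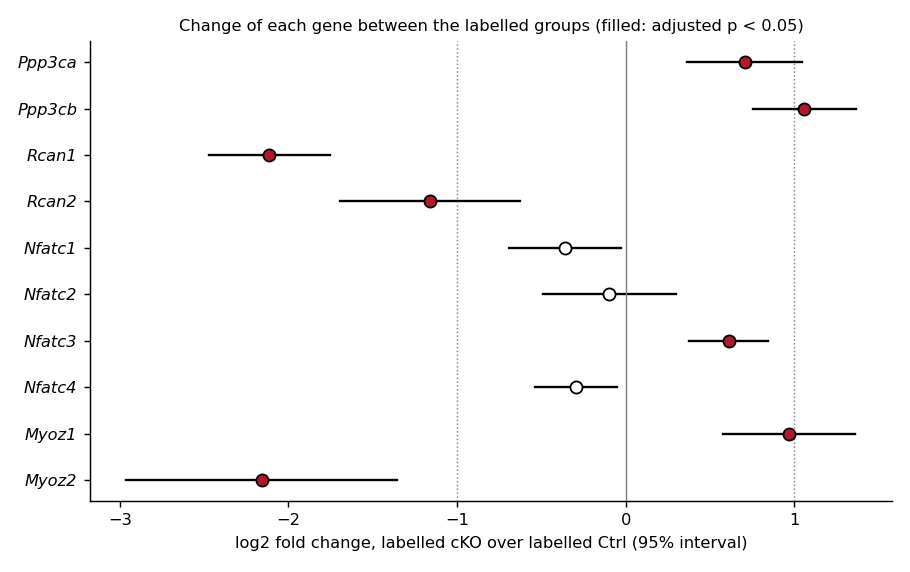
Log2 fold changes (x axis, cKO label over Ctrl label) of the 10 genes with 95% intervals as lines, filled points for an adjusted p under 0.05 and dotted lines at a fold change of 2. Rcan1, Rcan2 and Myoz2 lie to the left and Ppp3ca, Ppp3cb, Nfatc3 and Myoz1 to the right, from -2.16 for Myoz2 to 1.06 for Ppp3cb.

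Z-disc genes, those of proteins that calsarcins bind among them, were read from a list of 7, all tested. Of these, 1 rose under the label cKO (Actn3), 3 fell (Actn2, Csrp3 and Flnc) and 3 did not pass. The median log2 fold change was -0.40. Of all genes tested, 12.6% were called higher under the label cKO and 11.8% under the label Ctrl. Actn3, the alpha-actinin gene of fast fibres, averaged 4437 ± 1883 CPM (SD, n = 3) for the label Ctrl and 13255 ± 2987 CPM (SD, n = 3) for the label cKO. Actn2, the alpha-actinin gene expressed in all fibre types, averaged 3387 ± 671 CPM (SD, n = 3) and 1288 ± 263 CPM (SD, n = 3). Their log2 fold changes were 1.58 ± 0.33 (adjusted p = 0.0162, edgeR) and -1.40 ± 0.20 (adjusted p = 0.00539, edgeR). Csrp3, which encodes the muscle LIM protein that anchors calcineurin at the Z-disc, had a log2 fold change of -2.62 (adjusted p = 0.000627, edgeR). Actn3 passed in 3 of the 6 fits lacking a library (adjusted p = 0.0616 without Ctrl-labelled library 2, edgeR), Flnc in 5 (adjusted p = 0.0577 without cKO-labelled library 3, edgeR), and Actn2 and Csrp3 in all 6. The count of 4 was thus 2 without cKO-labelled library 3.

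Markers of slow fibres are given beside the values of Myoz2, Rcan1 and Rcan2. The 10 slow-fibre genes summed to 8618 to 14780 CPM for the label Ctrl and 469 to 3947 CPM for the label cKO. All 10 had log2 fold changes below 0, of which 4 passed, beside 11.8% of all genes tested called higher under the label Ctrl, and 6 did not. That count rested on single libraries: it was 0 without Ctrl-labelled library 1, 1 without Ctrl-labelled library 2 or cKO-labelled library 1, 2 without Ctrl-labelled library 3, 8 without cKO-labelled library 2 and 7 without cKO-labelled library 3. Of 11 fast-fibre genes, 8 rose under the label cKO, 2 fell (Myh1 and Myh2) and 1 did not pass. The share called in either direction over all genes tested was 24.4%. The 10 calls became 3 without Ctrl-labelled library 2, cKO-labelled library 1 or cKO-labelled library 3, 5 without Ctrl-labelled library 1, and 3 with the mouse number as a block. Myh7, the slow myosin gene, had 3676, 1723 and 2219 CPM in the Ctrl-labelled libraries and 494, 974 and 75.3 CPM in the cKO-labelled ones. At -2.30 ± 0.79 on the log2 scale, Myh7 missed the threshold (adjusted p = 0.0742, edgeR). It spread 12.9-fold within the label cKO, where Myoz2 spread 2.44-fold, Rcan1 1.24-fold, Rcan2 1.23-fold, Myoz1 1.21-fold and Ppp3cb 1.13-fold.

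With the log2 CPM of Myh7 as a covariate, a fit in which 57 of 14180 genes passed, Rcan1 passed at a log2 fold change of -1.82 ± 0.22 (adjusted p = 0.0444, edgeR) and the other 9 genes did not. Myoz2 moved to -1.27 ± 0.29 (adjusted p = 0.129, edgeR) and Rcan2 to -0.93 ± 0.37 (adjusted p = 0.281, edgeR). The values higher under the label cKO kept their sign, at 0.90 ± 0.20 for Ppp3cb, 0.58 ± 0.24 for Ppp3ca, 0.74 ± 0.26 for Myoz1 and 0.75 ± 0.15 for Nfatc3. Of the other pathway genes, Lmcd1 and Csrp3 passed in this fit, at -1.40 and -2.34. A gene that missed the threshold here is not thereby shown to be unchanged.

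**Figure D5:**
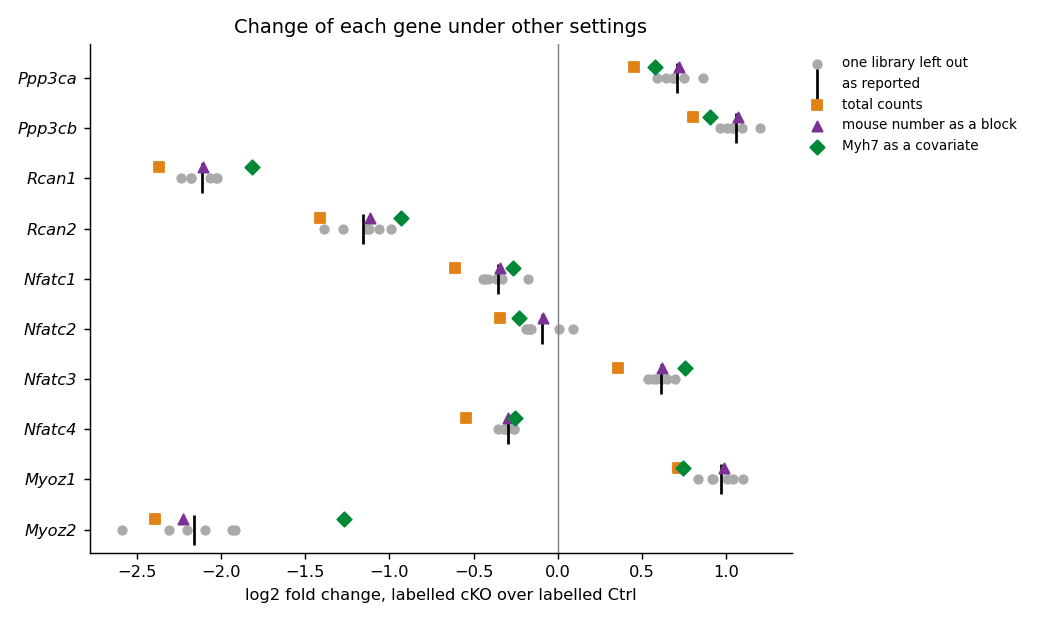
Log2 fold changes (x axis, cKO label over Ctrl label) of the 10 genes as reported (black bars), with 1 library left out (grey points), with total counts (orange squares), with the mouse number as a block (purple triangles) and with Myh7 as a covariate (green diamonds). Rcan1 stays between -2.37 and -1.82, Myoz2 moves to -1.27 with the covariate, and Nfatc2 is the gene whose points cross 0.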

How the data were processed

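Whole-muscle RNA of 6 mice was sequenced. Per the labels and the study's methods, the authors used FastQC 0.11.8 for read quality, Trimmomatic 0.39 for trimming, HISAT2 2.1.0 for alignment (build mm10) and featureCounts 1.6.2 for counting. They deposited raw counts without normalization, as 1 table of 24421 gene symbols per mouse. The annotation and strand setting are not given in the sources used here. No library repeated another of the same label (chi-square over its degrees of freedom, 29.5 to 101 for replicate pairs).

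Counts were fitted for the whole table in R 4.3.3 with edgeR 4.0.16 (TMM factors, filterByExpr, estimateDisp, glmQLFit, glmQLFTest, Benjamini-Hochberg adjustment). Calls needed an adjusted p below 0.05, and genes that also passed the study's fold change limit of 2 were counted separately. DESeq2 1.42.0, the successor of the study's DESeq, served as an alternative test. Standard errors came from the F statistic, 95% intervals from the test's degrees of freedom, and levels per kb from merged exons of GENCODE M21 (GRCm38). Simulated counts for this comparison (14037 genes tested) gave back 64 of 100 genes changed 2-fold and 94 of 100 changed 4-fold in edgeR. The genes and lists were chosen with earlier results of these data known. The named genes are the 10, Net39, Myh7, Myoz3, Rcan3 and, per list, the called genes with a fold change over 2 or, with none, that of the smallest p. Genes that make up a count of 5 or fewer, those behind the shares and those of the marker lists are named beyond this rule, after their values were seen. Other settings changed the scaling (size factors of DESeq2, or total counts), the filter (none, or 10 counts in each library), the variance (robust estimation) or the model (Myh7 as a covariate, mouse number as a block), or left out each library in turn. Results of 2 listed genes are not reported here. The labels' mouse numbers are not said to pair mice. The p-values measure the spread between the 3 libraries of each label.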

Additional observations from a re-analysis of the deposited data

How the results depend on the processing

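The count of calls among the 10 genes stayed at 7 with size factors of DESeq2, without a filter, with 10 counts needed in each library, with robust estimation, with the mouse number as a replicate block (which changed no call of the 10) and in DESeq2's Wald test. It was 9 with total counts, 1 with Myh7 as a covariate and 5 to 7 with a library left out. With the fold change limit, 4 genes became 3 with total counts, 1 with Myh7 as a covariate and 2 to 5 with a library left out, the 2 arising without Ctrl-labelled library 1, where Rcan2 (-0.99) and Ppp3cb (0.96) fell inside the limit. The 17 other pathway genes became 9 with the replicate block, 2 with Myh7 as a covariate and 7 to 16 with a library left out. Nfatc2 turned sign without Ctrl-labelled library 3 (0.087) and without cKO-labelled library 1 (0.0072), its range with a library left out being -0.19 to 0.087. The cause of these moves was not tested. Over all genes tested, the 3454 calls became 4747 with total counts (673 higher under the label cKO and 4074 under the label Ctrl), 1899 with the block, 57 with the covariate and 1560 to 3585 with a library left out. The mouse numbers share only a number: deviations of same-numbered libraries correlated at 0.083, -0.25 and -0.012, and not every library correlated best with its own number. Per-gene counts do not separate transcript starts.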
